A study of Canis lupus familiaris with 8 samples.

Results

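Double-positive (dp) cells are defined here as TCRαβ T cells from canine blood that carried at least 2 unique transcripts (UMIs, each counting 1 captured mRNA molecule) of both coreceptor genes, CD4 and CD8A, together with exactly 1 productive T cell receptor beta (TRB) chain. Among 31909 quality-controlled cells, 23107 had exactly 1 TRB chain and 119 of these were dp cells. That is 0.515% of the cells with 1 TRB chain (95% exact binomial interval 0.427 to 0.616%, counting error only). For comparison, 5963 CD4 single-positive (sp) cells had at least 2 CD4 UMIs and no CD8A UMI, and 4610 CD8A sp cells had at least 2 CD8A UMIs and no CD4 UMI, again with 1 TRB chain each. CD4 and CD8A, and with them sequencing depth, chose the cells, so their values are given below as a description and are not tested.

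The cells came from 4 healthy Beagles that had received routine vaccinations. Dog 1 was a female aged 5 years. Dogs 2 and 3 were males aged 7 years, and dog 4 was a male aged 9 years. Peripheral blood mononuclear cells were sorted by flow cytometry with an antibody against TCRαβ, so the gate did not use CD4 or CD8, and the sorted cells were frozen and thawed before the libraries were made. Each dog gave 1 single-cell transcriptome library and 1 V(D)J library, and the dog is the replicate (n = 4). The transcriptome libraries held 26904346, 35661623, 32637367 and 32773374 UMIs in 7428, 8873, 8402 and 8422 barcodes for dogs 1 to 4.

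CD4 and CD8 are coreceptors that bind MHC class II and class I molecules, respectively, and bring the kinase LCK to the T cell receptor. Thymocytes pass through a stage with both coreceptors before most commit to one of them, with the transcription factor ZBTB7B (ThPOK) on the CD4 side and RUNX3 on the CD8 side. Mature T cells with both coreceptors are also known from blood and tissues of several species, dogs included, and CD8 can be built from 2 alpha chains or from an alpha and a beta chain, encoded by CD8A and CD8B.

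A T cell and its descendants share the rearranged TRB junction, so cells of a dog with the same V gene, J gene and junction were taken as a clone. The TRB junctions of the 4 largest clones that contained dp, CD4 sp and CD8A sp cells side by side are printed first because the clonal results turn on them. They are followed by the largest clone of a dp cell with CD8A sp cells but no CD4 sp cell that had a paired alpha chain in most cells, and by the largest clone of a dp cell with CD4 sp cells but no CD8A sp cell. Capitals mark the bases of the junction that were assigned to neither the V nor the J gene. The junctions are rearranged and have no single position in the genome.
Dog 3, TRBV16 and TRBJ1-1: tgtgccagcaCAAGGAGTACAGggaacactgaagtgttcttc
Dog 3, TRBV4-3 and TRBJ2-5: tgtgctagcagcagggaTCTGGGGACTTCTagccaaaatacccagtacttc
Dog 2, TRBV7 and TRBJ2-3: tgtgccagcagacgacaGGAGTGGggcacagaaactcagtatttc
Dog 2, TRBV26 and TRBJ1-6: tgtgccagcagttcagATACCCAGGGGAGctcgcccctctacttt
Dog 3, TRBV1 and TRBJ1-4: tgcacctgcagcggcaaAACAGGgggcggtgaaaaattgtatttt
Dog 4, TRBV28 and TRBJ1-1: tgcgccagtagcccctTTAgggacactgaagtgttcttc

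Printed next are the alpha chain (TRA) junctions most often paired with the TRBV16, TRBV4-3 and TRBV26 chains of the mixed clones. They show which second chain the cells of a clone shared. In these junctions the V and J assignments left no base between them. The same held for the TRBV7 clone (TRAV21 and TRAJ40), whose TRA junction is not printed.
Dog 3, TRAV43-4 and TRAJ28: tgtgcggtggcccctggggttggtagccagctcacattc
Dog 3, TRAV9-6 and TRAJ23: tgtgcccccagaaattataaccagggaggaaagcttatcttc
Dog 2, TRAV43-1 and TRAJ38: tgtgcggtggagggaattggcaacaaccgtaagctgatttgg

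The dp cells were unevenly spread over the dogs. There were 15 dp cells of 5207 cells with 1 TRB chain in dog 1 (0.288%, exact interval 0.161 to 0.475%), 29 of 5784 in dog 2 (0.501%, 0.336 to 0.719%), 62 of 6093 in dog 3 (1.02%, 0.781 to 1.30%) and 13 of 6023 in dog 4 (0.216%, 0.115 to 0.369%). Dog 3 had the highest share, and its interval did not overlap any of the others under this rule. With at least 1 UMI of each gene the dogs held 51, 121, 143 and 75 dp cells, with at least 3 they held 3, 12, 15 and 6, and without clones with repeated dp cells 15, 24, 36 and 13. The size of the excess in dog 3 thus went with the threshold and the clones. The mean share was 0.506% ± 0.362 (SD, n = 4).

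The rule asked for 2 detected transcripts of 2 sparsely captured genes, and the dp cells were deep. The median UMIs per dp cell were 5009, 6324, 5373 and 4417 in dogs 1 to 4, against 4016.5, 4393.5, 4212 and 4285 in CD4 sp cells and 4060, 4013, 3691.5 and 3742 in CD8A sp cells. The dp median was above both sp medians in every dog. Of the dp cells, 84.9% had at least 4000 UMIs, compared with 56.6% among CD4 sp cells and 44.4% among CD8A sp cells. When every cell with at least 3000 UMIs was thinned to 3000 UMIs (leaving out 6059 shallower cells), 37 of 17048 cells (0.217%) still met the dp rule, against 112 (0.657%) of the same cells before thinning. By dog these 37 cells were 6, 12, 15 and 4, and the interval of dog 3 after thinning (0.337%, exact interval 0.189 to 0.555%) overlapped those of dogs 1, 2 and 4 (0.0593 to 0.351%, 0.141 to 0.474% and 0.0244 to 0.229%).

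The threshold cut through a continuum of low UMI counts. Of the 119 dp cells, 22 had exactly 2 UMIs of each gene, 43 had 2 of CD4 and more of CD8A, 18 had 2 of CD8A and more of CD4, and 36 had at least 3 of both. Just outside the rule were 61 cells with 1 UMI of each gene, 117 with 1 CD4 UMI and at least 2 CD8A UMIs, and 93 with at least 2 CD4 UMIs and 1 CD8A UMI. Requiring 1 UMI of each gene gave a share of 1.67%, and requiring 3 gave 0.153% (means over dogs).

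The level of both coreceptor transcripts in dp cells was below that of the respective sp cells, as the share of all UMIs of the summed cells scaled to 1e6 UMIs (CPM). CD4 was at 459, 591, 477 and 417 CPM in the dp cells of dogs 1 to 4 and at 684 ± 16.3 CPM (SD, n = 4) in CD4 sp cells. CD8A was at 565, 623, 678 and 811 CPM in dp cells and at 1631 ± 141 CPM in CD8A sp cells. In UMIs per cell, dp cells carried 3.01 ± 0.59 CD4 UMIs, compared with 2.99 ± 0.08 in CD4 sp cells, and 4.18 ± 1.07 CD8A UMIs, compared with 6.72 ± 0.28 in CD8A sp cells.

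CD8B, which the rule did not use, was low relative to CD8A. The ratio of CD8B to CD8A UMIs was 0.292, 0.229, 0.167 and 0.203 in dp cells of dogs 1 to 4, and 0.390, 0.514, 0.407 and 0.403 in CD8A sp cells. The ratio was lower in dp cells in 4 of 4 dogs (0.223 ± 0.052 against 0.429 ± 0.057). CD8A chose the cells of both classes, so the ratio is a description with no test. The dp cells nevertheless held more CD8B than CD4 sp cells, at 165, 142, 114 and 164 CPM against 42.0, 53.4, 37.9 and 32.04 CPM.

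**Figure D1:**
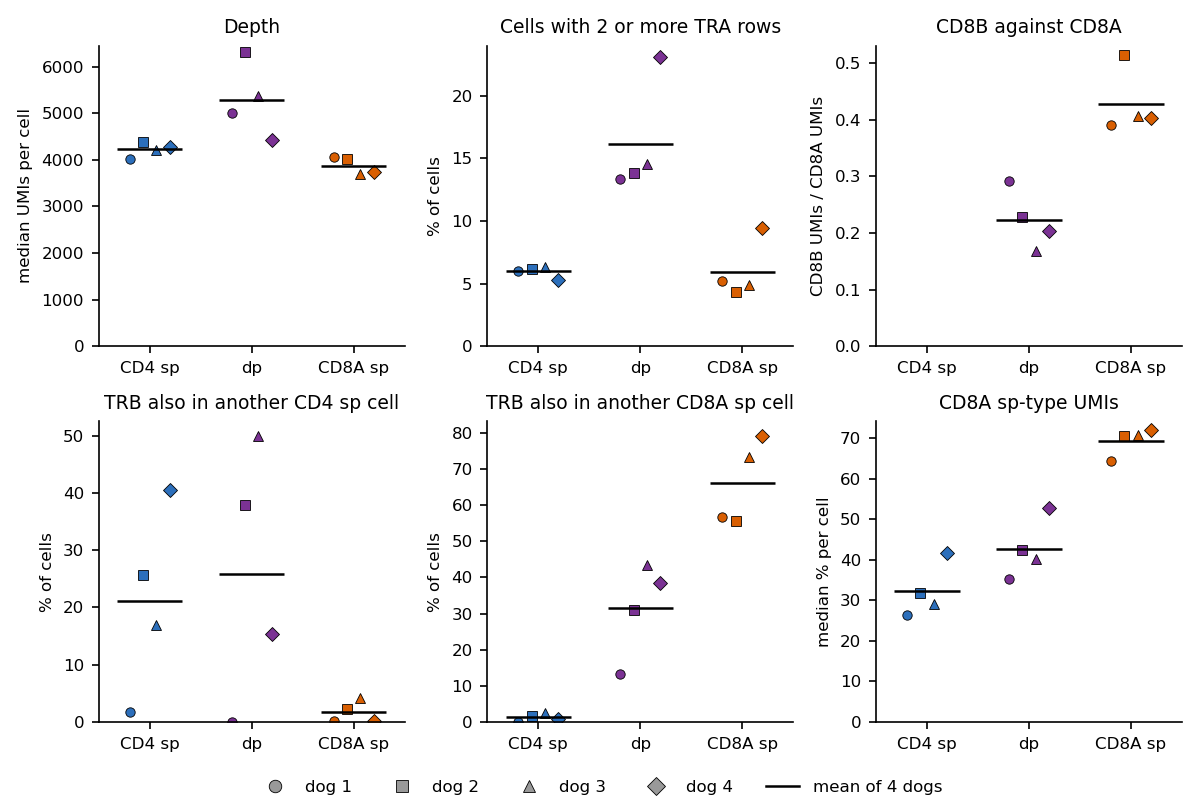
Values per dog (1 point per dog, bar at the mean of the 4 dogs) for CD4 sp, dp and CD8A sp cells: median UMIs per cell, percent of cells with 2 or more TRA chains, ratio of CD8B to CD8A UMIs, percent of cells whose TRB chain was found in another CD4 sp or another CD8A sp cell, and median percent of CD8A sp-type UMIs per cell (a TRA or TRB row on the axes is 1 chain). The dp points lie above both sp classes for 2 or more TRA chains (13.3 to 23.1%) and below the CD8A sp points for the CD8B to CD8A ratio (0.167 to 0.292).

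Because a droplet that captured a CD4 T cell and a CD8 T cell would also contain both transcripts, values that bear on doublets were collected. No doublet caller was run, and cells with 2 or more TRB chains are outside the definition. Of 267 cells that met the CD4 and CD8A thresholds with any number of TRB chains, 100 had none, 119 had 1 and 48 had 2 or more. Those with 2 or more made up 28.7% of the cells with a TRB chain (33.8 ± 18.1% over dogs), compared with 4.30 ± 1.17% in the corresponding CD4 cells and 4.26 ± 2.21% in the CD8A cells. In dog 3 this share was 10.1%, whereas it was 31.8, 39.6 and 53.6% in dogs 1, 2 and 4. The cells with 2 or more TRB chains had a median of 8253 UMIs, against 5413 in the dp cells with 1.

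Among the dp cells, 2 or more TRA chains were also frequent. They were found in 13.3, 13.8, 14.5 and 23.1% of the dp cells of dogs 1 to 4, compared with 5.96 ± 0.47% in CD4 sp cells and 5.95 ± 2.35% in CD8A sp cells. The dp share was above both sp shares in 4 of 4 dogs with no overlap (exact two-sided permutation test, p = 0.0286, adjusted p = 0.0898 over the 22 tests of cell measures, for each comparison). With 4 dogs against 4, 0.0286 is the smallest p this permutation test can give, and none of the 22 tests passed an adjusted p of 0.05. A T cell can itself carry a second TRA rearrangement. What share of the 119 dp cells were doublets was not tested, and these values apply to every result that follows. Of the dp cells, 2 (1.68%) carried a barcode that also occurred in another dog's library, compared with 3.52% in CD4 sp cells and 3.21% in CD8A sp cells. Over all quality-controlled barcodes, 255, 297, 299 and 282 of dogs 1 to 4 also occurred in another library.

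The dp cells had clonal partners in both sp classes. Within their own dog, 29 of the 119 dp cells (24.4%) shared their TRB chain with CD4 sp and with CD8A sp cells, 15 (12.6%) with CD4 sp but no CD8A sp cells, 14 (11.8%) with CD8A sp but no CD4 sp cells and 3 (2.52%) with cells of neither class. The remaining 58 (48.7%) had a TRB chain found in no other cell. The 119 cells carried 95 distinct TRB chains. Of these, 1 of dog 1 and 3 of dog 4 were also found in another dog. In dogs 1 and 4 every dp cell had a TRB chain of its own among dp cells, whereas the largest dp clone had 3 dp cells in dog 2 and 14 in dog 3. In all, 7 clones held 2 or more dp cells and together 31 of the 119.

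The cells with 2 or more TRA chains were not spread evenly over these kinds. They were 14 of the 58 dp cells without a clonal partner (24.1%) and 0 of the 29 dp cells in clones with both sp classes, where a count of 0 allows a share of up to 10.3%. Of the dp cells with CD4 sp partners alone they were 1 of 15, and of those with CD8A sp partners alone 2 of 14. Over all cells of each kind, median depth was 5484.5 UMIs without a partner and 5725 UMIs in clones with both classes. The 14 cells without a partner and with 2 or more TRA chains had 6216 and 7039 UMIs in dog 1. In dog 2 they had 5594, 6818, 10112 and 12472, and in dog 3 4382, 6669, 7456, 7796, 8763 and 9640. In dog 4 they had 3990 and 13147. Whether second TRA chains went with depth was not tested. Since the cells of a clone share their receptor, these counts are given without a test.

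The share of dp cells whose TRB chain was found in another CD8A sp cell was 13.3, 31.0, 43.5 and 38.5% in dogs 1 to 4. In CD4 sp cells it was 0.065, 1.67, 2.41 and 0.926%, and in CD8A sp cells 56.7, 55.7, 73.3 and 79.3%. The dp share lay between the sp classes in 4 of 4 dogs (exact permutation test, p = 0.0286 and adjusted p = 0.0898 against each). The share of dp cells with a TRB chain found in another CD4 sp cell was 0, 37.9, 50 and 15.4%, compared with 1.75, 25.6, 16.9 and 40.5% in CD4 sp cells and 0.199, 2.22, 4.15 and 0.134% in CD8A sp cells. Here the dp and CD4 sp ranges overlapped widely (exact permutation test, p = 0.83), dp cells being higher in dogs 2 and 3 and lower in dogs 1 and 4. Against CD8A sp cells dp cells were higher in 3 of 4 dogs (exact permutation test, p = 0.143). Clones of 2 or more cells took in 43.7 ± 21.6% of dp cells, with 26.3 ± 18.2% in the CD4 sp class and 68.2 ± 11.3% in the CD8A sp class (exact permutation tests, p = 0.286 and p = 0.0857). By dog these shares were 13.3, 44.8, 62.9 and 53.8% in dp, 4.20, 31.3, 21.8 and 47.8% in CD4 sp and 58.6, 58.5, 74.8 and 80.8% in CD8A sp cells. The dp share was above CD4 sp and below CD8A sp cells in 4 of 4 dogs (exact sign-flip test over dogs, p = 0.125 for each, the smallest it can give).

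The clones that joined dp cells with both sp classes came from dogs 2 and 3. Of 778 clones with at least 2 sp cells, 23 (2.96%) held both CD4 sp and CD8A sp cells, 1, 8, 12 and 2 of them in dogs 1 to 4. These were 8 of the 23 clones that also held a dp cell (34.8%) and 15 of the 755 that did not (1.99%). By dog, the clones with a dp cell that held both sp classes were 0 of 2, 5 of 7, 3 of 8 and 0 of 6. Larger clones have more chances to contain a cell of every class, so the counts are a description.

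The 8 clones of dp, CD4 sp and CD8A sp cells contained 194 cells, a number that includes cells with 1 or 0 UMIs of either coreceptor. The TRBV16/TRBJ1-1 clone of dog 3 had 46 cells, of which 14 were dp, 6 CD4 sp, 9 CD8A sp and 10 had both coreceptors with fewer than 2 UMIs of at least one. Its TRBV4-3/TRBJ2-5 clone had 40 cells, of which 5 were dp, 5 CD4 sp, 6 CD8A sp and 12 were of that lower dp kind. In dog 2, the TRBV7/TRBJ2-3 clone had 41 cells with 1 dp, 12 CD4 sp and 5 CD8A sp cells, and the TRBV26/TRBJ1-6 clone had 36 cells with 3 dp, 7 CD4 sp and 9 CD8A sp cells. The 4 other clones had 5 to 10 cells.

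The cells of these clones also shared their alpha chain. Of the 165 cells of the 8 clones that had exactly 1 TRA chain, 163 carried the commonest TRA chain of their clone. In the clones of 46, 40, 41 and 36 cells it was 43 of 43, 32 of 32, 34 of 34 and 35 of 35 cells. The dp cells were no exception, with 14 of 14 in the first clone and 5 of 5 in the second carrying the TRA junctions printed above.

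In the 14 clones with CD8A sp but no CD4 sp cells the dp cells were single, whereas 2 of the 12 clones with CD4 sp but no CD8A sp cells held 2 or more. The TRBV1/TRBJ1-4 clone of dog 3 had 103 cells, of which 92 were CD8A sp and 1 was dp, with TRAV9-6/TRAJ38 in 70 of its 70 cells with 1 TRA chain. In dog 4, a TRBV1/TRBJ2-3 clone had 106 CD8A sp cells and 1 dp cell among 112. Only 4 of these 112 cells had exactly 1 TRA chain, and the commonest of those chains was in 1 cell. A shared alpha chain was thus not seen in this clone, which rests on its TRB chain alone. The TRBV28/TRBJ1-1 clone of dog 4 had 10 CD4 sp cells and 1 dp cell among 42, with no CD8A sp cell.

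**Figure D2:**
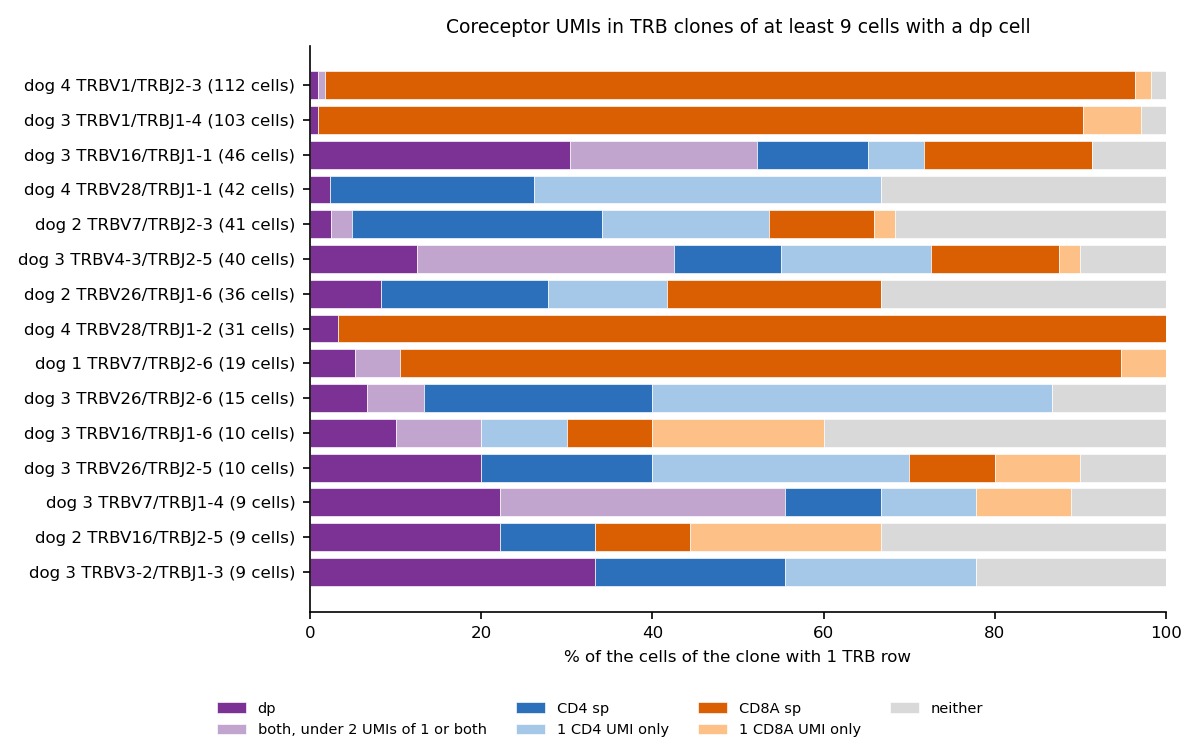
Percent of the cells of each clone (horizontal axis) that fall in each coreceptor class, for the clones of 9 or more cells that contain a dp cell, 1 bar per clone with its dog and number of cells. Some clones of dogs 2 and 3 hold dp, CD4 sp and CD8A sp cells together (for example 14, 6 and 9 in the clone of 46 cells), whereas the clones of 112 and 103 cells consist almost wholly of CD8A sp cells (106 of 112 and 92 of 103). The clone of 112 cells rests on its TRB chain alone, since only 4 of its cells had exactly 1 TRA chain and no shared one was seen.

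The use of receptor genes was compared for 6 genes, families or pairs. Genes of the TRAV43 family made up 33.3, 47.1, 46.5 and 37.5% of the single TRA chains of dp cells in dogs 1 to 4, compared with 34.9 ± 2.9% in CD4 sp and 11.8 ± 4.4% in CD8A sp cells. TRBV16 made up 20, 24.1, 35.5 and 15.4% of the TRB chains of dp cells, compared with 19.7 ± 1.9% in CD4 sp and 11.7 ± 2.7% in CD8A sp cells. In dog 4 the TRBV16 share of dp cells was close to the 14.4% of CD8A sp cells and below the 21.0% of CD4 sp cells. Both shares were above CD8A sp cells in 4 of 4 dogs (exact permutation test, p = 0.0286 and adjusted p = 0.0898 for each), and neither was separated from CD4 sp cells (p = 0.2 and p = 0.486 by the same exact test). Without the dp cells of the 7 clones with repeated dp cells, the differences from CD4 sp cells turned to -3.16 percentage points for TRAV43 and -0.044 for TRBV16. TRAV9-11 with TRAJ28 occurred in 1 of 17 dp cells of dog 2 and 1 of 8 of dog 4 (5.88 and 12.5%; 19.0 and 7.71% in their CD8A sp cells) and in none of dogs 1 and 3, against a mean of 19.2 ± 11.5% of CD8A sp cells (exact permutation test, p = 0.0571). TRAV24, TRBV7 and TRBV18 gave exact p values of 0.171 to 1 against either class.

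For the transcriptome, UMIs were summed per dog and class, giving 12 sums, and 9577 genes with sufficient counts were tested with edgeR's quasi-likelihood test. Adjusted p values are Benjamini-Hochberg values over all genes tested, and the comparisons of dp cells with CD4 sp and with CD8A sp cells share the dp sums. Since the 3 classes of a dog come from the same library, the fit with the dog as a block is given alongside. The dp sums rested on 13 to 62 cells per dog, and the sp sums on 503 to 1664.

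The sp classes differed from each other in 1369 genes (14.3% of those tested), 681 higher in CD4 sp (7.11%) and 688 higher in CD8A sp cells (7.18%). With the dog as a block these were 1178 (12.3%) and 1140 (11.9%), 24.2% in all, and with DESeq2 753 (6.49%) and 900 (7.76%). The dp sums held 84994 to 343544 UMIs and the sp sums 2146638 to 7326586, so fewer differences can pass with dp cells. Counts of calls with dp cells are thus not on the scale of those between the sp classes. The dp cells were higher than CD4 sp cells in 9 genes (0.094% of genes tested) and lower in 0. At an unadjusted edgeR p under 0.05, 266 genes were higher and 581 lower. With the dog as a block, 40 genes were higher (0.418%) and 40 lower (0.418%), 0.835% in all, and DESeq2 called 71 higher (0.56%) and 15 lower (0.118%), 0.678% in all. Without dog 2 the 9 calls fell to 2 and without dog 1 or 4 to 6, and the 80 with the block fell to 33, with 51 without dog 3. The dp cells were higher than CD8A sp cells in 48 genes (0.501%) and lower in 66 (0.689%), 1.19% in all. With the block these were 80 (0.835%) and 138 (1.44%), 2.28% in all, and with DESeq2 121 (1.18%) and 73 (0.713%), 1.9% in all. The 114 calls fell to 31, 17 and 65 without dogs 2, 3 and 4, and the 218 with the block to 134 and 131 without dogs 2 and 3.

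**Figure D3:**
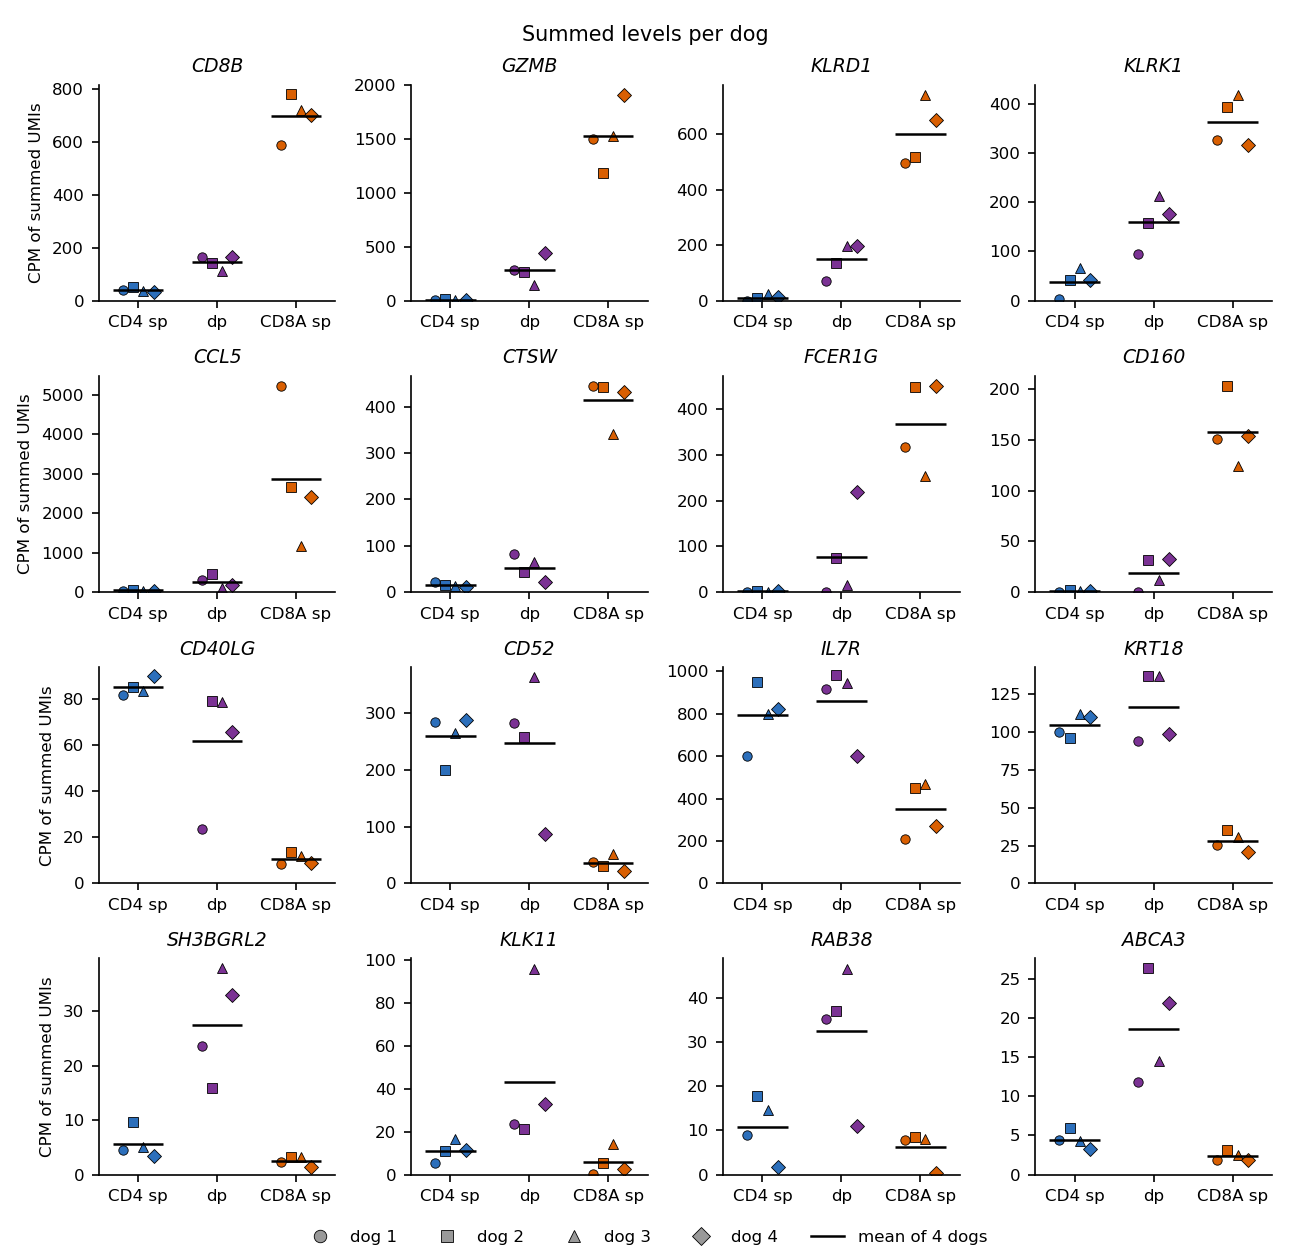
Level (CPM, linear axis from 0) of 16 genes in the summed CD4 sp, dp and CD8A sp cells, 1 point per dog and a bar at the mean. GZMB and CCL5 of dp cells lie between the classes, CD40LG of dp cells lies above all CD8A sp points, and SH3BGRL2, KLK11 and RAB38 of dp cells lie above both sp classes of the same dog.

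Some genes of cytotoxic effector function were higher in dp than in CD4 sp cells, and some were lower than in CD8A sp cells. Of 19 tested genes of this list, 3 were higher and 0 lower in dp than in CD4 sp cells (10 and 0 with the block), and 0 were higher and 7 lower than in CD8A sp cells (0 and 15 with the block). Without dog 2 and without the block, GZMA and KLRD1 lost their calls against CD4 sp cells. Against CD8A sp cells GZMA, CST7, CCL4 and EOMES lost theirs in that fit. In the fit with the block, GZMK, KLRK1, TBX21 and ZEB2 lost theirs against CD4 sp cells without dog 2. Without dog 3 these were GZMK, CTSW, KLRK1 and TBX21. The median log2 fold change over the 19 genes was 1.88 against CD4 sp and -1.97 against CD8A sp cells, where the medians of all genes tested were -0.08 and -0.09. The list was made with earlier results of these dogs known, so its direction is not independent evidence.

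GZMB, the granule protease granzyme B, was at 282, 264, 143 and 438 CPM in dp cells of dogs 1 to 4. In CD4 sp cells it was at 3.28, 11.7, 11.1 and 10.1 CPM, and in CD8A sp cells at 1503, 1183, 1531 and 1910 CPM. The 3 classes did not overlap, and dp cells were higher than CD4 sp cells by 4.72 ± 0.35 on the log2 scale (SE; edgeR adjusted p = 2.6e-06). GZMA, encoding granzyme A, was at 23.5, 63.3, 26.2 and 132 CPM in dp cells and at 0.575 ± 0.447 CPM in CD4 sp cells (log2 fold change 6.32 ± 0.86, edgeR adjusted p = 0.0048). It was at 249 ± 117 CPM in CD8A sp cells, with the dp value of every dog below its CD8A sp value. KLRD1, which encodes the CD94 chain of natural killer receptors, was at 70.6, 137, 198 and 197 CPM in dp cells against 11.6 ± 9.0 CPM in CD4 sp cells (log2 fold change 3.75 ± 0.58, edgeR adjusted p = 0.012). SYTL2, which takes part in the exocytosis of granules, was at 23.5, 21.1, 8.73 and 43.8 CPM in dp cells on a total of 13 UMIs, and 1.09 to 2.83 CPM in CD4 sp cells (edgeR adjusted p = 0.0337). GZMB kept its call without any 1 of the dogs, whereas GZMA lost it without dog 1 or 2 (largest edgeR adjusted p = 0.096), KLRD1 without dog 2, 3 or 4 (0.179) and SYTL2 without dog 1, 2 or 4 (0.322). With the block, GZMA and KLRD1 kept theirs in every such fit.

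CD8B was also called higher than in CD4 sp cells, in 4 of 4 dogs (log2 fold change 1.65 ± 0.20, edgeR adjusted p = 0.0016). FCER1G, the signalling chain of several activating receptors, was also called against CD4 sp cells (edgeR adjusted p = 0.0055), but on a wide spread of 0, 73.9, 14.6 and 219 CPM. It was at 0 in dog 1 and largest in dog 4, and the call was lost without dog 2 or 4. With the block, the natural killer receptor gene NCR3, the transcription factor gene ZEB2, KLRB1, CCL5 and KLRK1 were higher as well (edgeR adjusted p = 0.0060, 0.0017, 9.3e-04, 7.3e-04 and 0.0453). Of these, NCR3 lost its call without dog 3, ZEB2 without dog 2 and KLRK1 without dog 2, 3 or 4.

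The chemokine genes showed the distance from CD8A sp cells. CCL5 was at 294, 459, 99.0 and 186 CPM in dp cells, against 5230, 2660.2, 1171 and 2402 CPM in CD8A sp cells and 40.0 ± 13.7 CPM in CD4 sp cells. It was lower than in CD8A sp cells by 3.6 ± 0.46 on the log2 scale (SE; edgeR adjusted p = 0.0010), and the ranges did not overlap. CCL4 was at 82.4, 42.2, 143 and 21.9 CPM in dp cells and at 699 to 1565 CPM in CD8A sp cells (log2 fold change -3.57 ± 0.53, edgeR adjusted p = 0.0031). CTSW, encoding the protease cathepsin W of cytotoxic cells, was at 82.4, 42.2, 64.0 and 21.9 CPM in dp and 415 ± 49.98 CPM in CD8A sp cells (log2 fold change -2.98 ± 0.28, edgeR adjusted p = 3.8e-05). Of the 24 genes named against CD8A sp cells, 6 kept their call without any 1 of the dogs, namely CCL5, CTSW, CD160, CD40LG, CD52 and KRT18. The other 18 lost it without at least 1 of the dogs (5, 12, 15 and 10 of the 24 without dogs 1 to 4).

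Further genes below CD8A sp cells were CD160, an inhibitory and cytotoxic cell receptor, ITGAM, encoding integrin alpha M, NCR3 and FCER1G, with log2 fold changes of -3.15 to -2.72. Of the 6 tested genes of innate-like T cells, 1 was higher than in CD4 sp cells (FCER1G) and 2 were lower than in CD8A sp cells (FCER1G and NCR3), with median log2 fold changes of 1.35 and -1.68. The block added NCR3, higher than in CD4 sp cells, and CD244, lower than in CD8A sp cells. The Src family kinase gene FGR had 1 UMI in all dp cells and 21.9 to 27.3 CPM in CD8A sp cells. CHN2, ZNF263 and MTX3 rested on 2, 1 and 1 UMIs in dp cells and B3GNT4 on 0, so their levels are poorly known. For B3GNT4 a limit of 3 counts over all dp cells makes it at least 4.12-fold lower than in CD8A sp cells. ZNF263 and MTX3 were at similar levels in the sp classes (11.4 to 17.2 CPM and 10.7 to 15.9 CPM).

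Several genes of the CD4 side stood above CD8A sp cells in dp cells. CD40LG, the helper ligand that activates B cells and dendritic cells, was at 23.5, 79.1, 78.6 and 65.8 CPM in dp cells. It was at 85.0 ± 3.5 CPM in CD4 sp and at 10.8 ± 2.5 CPM in CD8A sp cells. The dp value was above the CD8A sp value in every dog (log2 fold change 2.60 ± 0.27, edgeR adjusted p = 1.5e-04) and below the CD4 sp value in every dog without passing the test (edgeR adjusted p = 0.69). ZBTB7B, the CD4 lineage factor, was at 35.3, 58.0, 14.6 and 32.9 CPM in dp, 19.5 ± 1.6 CPM in CD4 sp and 6.09 ± 1.46 CPM in CD8A sp cells (log2 fold change against CD8A sp 2.31 ± 0.40, edgeR adjusted p = 0.0087). RUNX3, the CD8 lineage factor, was at 35.3, 10.6, 11.6 and 43.8 CPM in dp cells and did not pass either comparison (edgeR adjusted p = 0.851 and 0.58). Of the 11 tested genes of the coreceptor and lineage factor list, 1 was higher than in CD4 sp cells (CD8B), and against CD8A sp cells 2 were higher (CD40LG and ZBTB7B) and 1 lower (CD8B), with median log2 fold changes of -0.36 and 0.28. ZBTB7B lost its call without dog 2. ID3 was called only in the fit with the block, lower than in CD4 sp cells (edgeR adjusted p = 0.0493) and higher than in CD8A sp cells (5.2e-04). Its call against CD4 sp cells was lost in each fit that left out 1 dog, and that against CD8A sp cells without dog 3.

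CD52, a glycoprotein of the lymphocyte surface, was at 282, 259, 364 and 87.7 CPM in dp cells and at 21.8 to 51.3 CPM in CD8A sp cells (log2 fold change 2.88 ± 0.33, edgeR adjusted p = 2.6e-04). The other named genes above CD8A sp cells, chosen by size of change among those called with the same direction in 4 of 4 dogs, were SELENOP, a selenium carrier, NR1D1, a clock repressor, ABCA3, GSDMA, ZC3H12D, EFHC2, MGAT5, KRT18 and SH3BGRL2. Their log2 fold changes ranged from 2.09 (KRT18) to 3.64 (SELENOP). Of these 9 genes, SELENOP and ABCA3 rested on 13 UMIs each in dp cells.

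The naive and central memory list held 11 tested genes. Against CD8A sp cells 2 were higher, namely IL7R, the receptor for the survival cytokine IL-7, and S1PR1, which guides exit from lymphoid tissue, and 0 were lower, the median log2 fold change being 0.12. IL7R was at 918, 981, 946 and 603 CPM in dp cells, 793 ± 145 CPM in CD4 sp and 349 ± 129 CPM in CD8A sp cells (log2 fold change against CD8A sp 1.24, edgeR adjusted p = 0.0158). Against CD4 sp cells 0 of 11 passed, and with the block 3 were lower, namely CCR7, TCF7 and LEF1. LEF1, a transcription factor of naive T cells, was at 247, 100, 116 and 110 CPM in dp cells and at 638, 369, 328 and 205 CPM in CD4 sp cells, so it was lower in each dog although the ranges of the groups overlapped (log2 fold change -1.59 ± 0.17 with the block, edgeR adjusted p = 5.1e-06; -1.65 and adjusted p = 0.215 without it). The lymph node homing receptor gene CCR7 was at 58.8, 52.8, 93.1 and 0 CPM in dp cells and 104 to 218 CPM in CD4 sp cells (with the block, edgeR adjusted p = 9.3e-04). The calls of LEF1, CCR7 and TCF7 held in the fit with the block without any 1 of the dogs, whereas without the block IL7R lost its call without dog 2 or 3 and S1PR1 without dog 1, 2 or 3.

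Some genes of the other lists passed the test. Of all genes tested, 1.19% passed against CD8A sp and 0.094% against CD4 sp cells without the block. Of 7 tested regulatory T cell genes, with a median log2 fold change of 2.24 against CD8A sp and -0.62 against CD4 sp cells, CTLA4 and IL2RA were higher than in CD8A sp cells (edgeR adjusted p = 0.0059 and 0.0281), and none passed against CD4 sp cells. FOXP3, which defines this lineage, was at 12.7 ± 3.2 CPM in dp, 20.7 ± 8.0 CPM in CD4 sp and 2.93 ± 2.14 CPM in CD8A sp cells and passed neither test. TNFRSF18 of the same list was called higher than in CD8A sp cells with the block only (edgeR adjusted p = 0.0261, lost without dog 2, 3 or 4). Of 14 activation genes, the costimulatory receptor gene ICOS was higher and CD38 lower than in CD8A sp cells (edgeR adjusted p = 0.0155 and 0.0129). The fit with the block also called DUSP2 and DLA-DQB1 lower than in CD8A sp cells (edgeR adjusted p = 0.0027 and 0.0110). Of these 2, DUSP2 lost its call without dog 3 and DLA-DQB1 without dog 1 or 2. Of 6 T helper 2 genes, IL4R was higher than in CD8A sp cells (edgeR adjusted p = 0.0126). Without dog 3, CTLA4, IL2RA, ICOS, CD38 and IL4R each lost the call without the block, and with it CTLA4, ICOS and IL4R kept it without any 1 of the dogs.

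For T helper 1 (8 tested genes), exhaustion (7), proliferation (14) and interferon response (10), 0 genes passed against either sp class by edgeR without the block, and with the block 1 gene did, CD244 of the exhaustion list, lower than in CD8A sp cells (edgeR adjusted p = 0.0400, lost without dog 2 or 3). The fitted log2 fold change was above 0 for 1 of the 7 exhaustion genes against CD8A sp cells and for 4 of them against CD4 sp cells, and TIGIT had 0 UMIs and FCRL5 had 2 UMIs in dp cells, so no median is given for this list. Of 14 genes of the T cell receptor complex and its signalling, 0 passed against CD4 sp cells, and against CD8A sp cells the costimulatory receptor gene CD28 was higher and CD7 and the kinase gene ZAP70 were lower (edgeR adjusted p = 0.0209, 0.0023 and 0.0188). Without dog 2 all 3 of these calls were lost, and with the block CD28 and CD7 kept theirs without any 1 of the dogs. CD3E was at 1219 ± 106 CPM in dp cells, 1283 ± 85.0 CPM in CD4 sp and 1254 ± 78.02 CPM in CD8A sp cells. Of the 10 immature thymocyte genes in the matrix, 2 had sufficient counts to be tested and 0 passed, with fitted log2 fold changes above 0 for both against either sp class. RAG1, RAG2 and PTCRA, which mark receptor rearrangement in the thymus, had 0 UMIs in all 3 classes.

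Markers of other cells were summed per class. Of 11 B cell genes, 5 were detected in dp cells and 7 in each sp class. CD79B and BANK1 had 0 UMIs in dp cells, and PAX5, EBF1, CD22 and FCRLA had none in any of the 3 classes. CD79A stood at 9489 ± 810 CPM in dp cells and at 9619 ± 532 and 9762 ± 668 CPM in the sp classes, making up nearly all of the summed list, and the other B cell genes summed to 9.18 CPM in dp, 9.35 CPM in CD4 sp and 9.29 CPM in CD8A sp cells. Of 15 myeloid genes, 11 had 0 UMIs in dp cells, and S100A8 gave almost all of the sum of 2736 ± 356 CPM (2318 ± 688 in CD4 sp, 1725 ± 499 in CD8A sp cells). S100A8 was above both sp classes in 4 of 4 dogs. With the block it was called against CD8A sp cells (log2 fold change 0.74 ± 0.10, edgeR adjusted p = 9.4e-05) and against the mean of the sp classes (0.45 ± 0.09, edgeR adjusted p = 0.0383), and without the block it was not (edgeR adjusted p = 0.187 and 0.684). Without dog 1, 2 or 3 the call against the mean was lost (largest edgeR adjusted p = 0.209), and the call against CD8A sp cells was kept without any 1 of the dogs. The other myeloid genes summed to 23.9 CPM in dp, 5.55 CPM in CD4 sp and 183 CPM in CD8A sp cells. The natural killer cell list stood at 159 ± 64.0 CPM in dp, 11.9 ± 8.5 CPM in CD4 sp and 622 ± 115 CPM in CD8A sp cells, most of it KLRD1. Without KLRD1 it stood at 8.15 CPM in dp, 0.356 CPM in CD4 sp and 19.8 CPM in CD8A sp cells. Of the other list genes, NCR1, encoding the natural killer receptor NKp46, had 4 UMIs in dp cells, KLRF1 and SH2D1B had 1 each and NCAM1 had 0, whereas in CD4 sp cells KLRF1 and SH2D1B were at 0. Both tested genes of the list, KLRD1 and NCR1, were higher than in CD4 sp cells (edgeR adjusted p = 0.0337 for NCR1, lost in each of the 4 fits that left out 1 dog). Of the 4 γδ T cell genes in the matrix, 3 had 0 UMIs in dp cells, TRDC among them, and the 7 erythrocyte and platelet genes had none.

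Compared with the mean of the sp classes, 0 genes differed by edgeR without the block (688 had an unadjusted p under 0.05), while DESeq2 called 29 higher (0.317%) and 3 lower (0.0328%), 0.35% in all. With the dog as a block, 10 genes (0.104%) were higher and 3 (0.0313%) lower, 0.136% in all. In 4 of 4 dogs, 286 genes (2.99% of those tested) lay above both sp classes and 599 (6.25%) below both. Only CPM were compared for these counts, with no minimum of UMIs in the dp sums, which held 84994 to 343544 UMIs. A gene with 0 UMIs in a dp sum lies below both sp sums whenever they hold any, so the counts are a description. Of these genes, SH3BGRL2, KLK11 and RAB38 were higher than each sp class with an adjusted p under the threshold in the fit with the block. By the same fit, ABHD16A, CD84, KDM4B, WIZ and 1 gene known by its identifier only were lower than each sp class. With 1 dog left out, the calls of CD84 and KDM4B against CD4 sp cells were lost in each of the 4 fits, that of ABHD16A without dog 2 or 3 and that of WIZ without dog 2. Against CD8A sp cells those of CD84 and KDM4B were lost without dog 2 or 3, that of ABHD16A without dog 3 and that of WIZ without dog 2.

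SH3BGRL2, a small protein related to SH3-binding proteins, was at 23.5, 15.8, 37.8 and 32.9 CPM in dp cells, 4.53, 9.69, 5.13 and 3.46 CPM in CD4 sp cells and 1.33 to 3.23 CPM in CD8A sp cells. The dp cells were higher without overlap, on 21 UMIs (against the mean of the sp classes with the block, log2 fold change 2.76 ± 0.46, edgeR adjusted p = 0.0152; without it adjusted p = 0.0883). KLK11, a secreted serine protease, was at 23.5, 21.1, 96.1 and 32.9 CPM in dp cells against 5.31 to 16.5 CPM in CD4 sp and 0.466 to 14.1 CPM in CD8A sp cells (with the block 2.39 ± 0.41, edgeR adjusted p = 0.0172; without it adjusted p = 0.358). RAB38, a small GTPase of vesicle transport, was at 35.3, 36.9, 46.6 and 11.0 CPM in dp cells against 1.65 to 17.7 CPM in CD4 sp and 0.333 to 8.54 CPM in CD8A sp cells (with the block 1.94 ± 0.36, edgeR adjusted p = 0.0221; without it adjusted p = 0.614). For KLK11 dog 3 stood apart, and for RAB38 dog 4 was low in all 3 classes. The 13 calls against the mean fell to 3 when dog 3 was left out and numbered 5, 15 and 19 without dogs 2, 1 and 4. Against the mean, SH3BGRL2 and KLK11 lost their calls without dog 3, and RAB38 without dog 2 or 3. Against CD4 sp cells, SH3BGRL2 lost its call without dog 3 or 4, KLK11 without dog 2 or 3 and RAB38 without dog 1, 2 or 3. Compared with CD8A sp cells in the fit with the block, KLK11 and RAB38 lost theirs without dog 3, and SH3BGRL2 kept its call without any 1 of the dogs.

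Single cells were placed between the sp classes by the genes that differed between CD4 sp and CD8A sp cells. For each dog the genes were chosen on the other 3 dogs (427 to 597 higher in CD4 sp and 450 to 581 higher in CD8A sp cells), with CD4, CD8A, CD8B and receptor genes left out, and the measure is the share of a cell's UMIs over both lists that came from the CD8A sp list. The median share was 35.3, 42.5, 40.1 and 52.6% in dp cells of dogs 1 to 4, 26.5, 31.9, 29.1 and 41.8% in CD4 sp cells and 64.4, 70.4, 70.7 and 71.9% in CD8A sp cells. In each dog the dp median lay between the sp medians and closer to that of CD4 sp cells. The dp values were below the CD8A sp values without overlap (exact permutation test, p = 0.0286, adjusted p = 0.0898), and overlapped those of CD4 sp cells over dogs (exact permutation test, p = 0.0857, adjusted p = 0.189).

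The individual dp cells spread over the ranges of both classes. Of the 119 cells, 81 (68.1%) were at or below the 95th percentile of the CD4 sp cells of their dog, 100 (84.0%) at or above the 5th percentile of the CD8A sp cells and 62 (52.1%) within both. Of CD4 sp cells 23.5% and of CD8A sp cells 9.05% lay within both. In summed UMIs, the level of the CD8A sp list in dp cells had moved 26.0 ± 3.4% of the way from its CD4 sp to its CD8A sp level, and the level of the CD4 sp list 39.4 ± 12.1% (SD, n = 4).

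**Figure D4:**
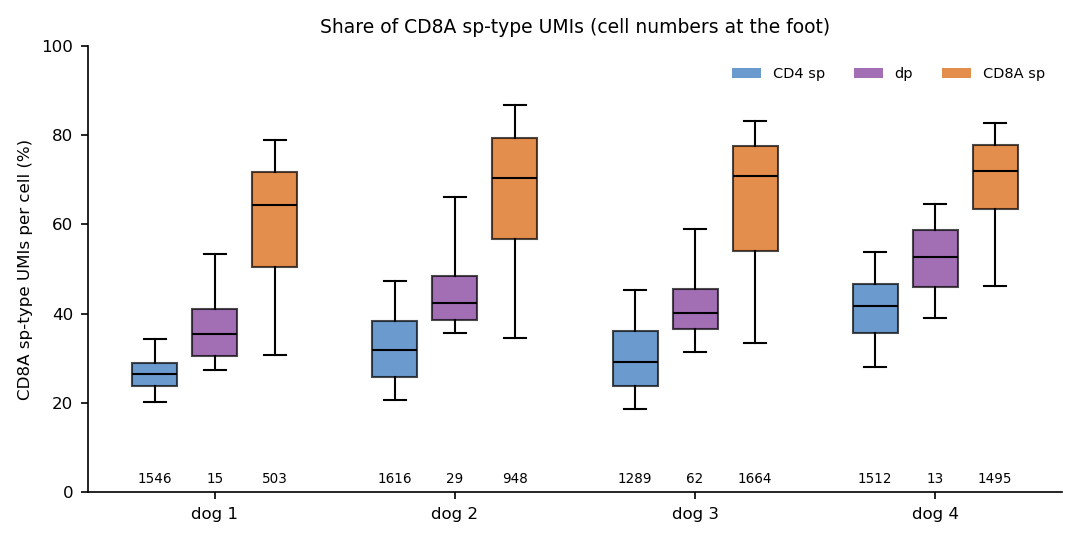
Share of CD8A sp-type UMIs (percent) per cell for CD4 sp, dp and CD8A sp cells of each dog, with the median, the quartiles (box) and the 5th and 95th percentiles (whiskers). The dp medians (35.3 to 52.6%) lie between the medians of CD4 sp (26.5 to 41.8%) and CD8A sp cells (64.4 to 71.9%) of the same dog.

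The same measure differed by clonal partner. Pooled over dogs, its median was 52.7% in the 14 dp cells with CD8A sp partners alone, 40.9% in the 15 with CD4 sp partners alone, 39.5% in the 29 of clones with both classes and 41.5% in the 58 with no partner. The dogs contributed unequally to these kinds, and dog 4, with the highest dp median, gave 5 of the 14 cells with CD8A sp partners alone, 2 of the 15 with CD4 sp partners alone and 0 of the 29. Cells of a clone are not independent, so these medians carry no test.

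Within the 8 clones of dogs 2 and 3 that held dp, CD4 sp and CD8A sp cells, the classes had nearly the same median. It was 40.8% in their 36 CD4 sp cells, 39.5% in their 29 dp cells and 42.9% in their 34 CD8A sp cells. The median was 39.9% in their 38 cells with 0 UMIs of both coreceptor genes and 40.4% in their 26 of the lower dp kind. It was 39.3% in their 26 cells with 1 CD4 UMI alone and 40.5% in their 5 with 1 CD8A UMI alone. Outside these clones it was 30.9% in CD4 sp and 70.4% in CD8A sp cells of all dogs. In dog 2 the CD8A sp cells of the clones had a median of 44.0%, against 72.0% in CD8A sp cells of other clones and 67.4% in those whose TRB chain occurred once. In dog 3 these values were 42.2, 73.3 and 48.3%. The CD4 sp cells of the clones had a median of 41.8% in dog 2, against 38.4% in CD4 sp cells of other clones and 28.3% in those whose TRB chain occurred once, and in dog 3 these values were 39.4, 37.1 and 26.6%. The CD8A sp cells of the shared clones were thus lower than those of other clones in both dogs, with 18 and 16 cells.

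Levels of single genes in the shared clones are given as summed CPM over dogs 2 and 3 with 95% exact Poisson intervals that cover counting error only. GZMB had 2 UMIs in CD4 sp, 0 in dp and 1 in CD8A sp cells of the clones, where a limit of 3 counts corresponds to 17.9 CPM in the dp cells. Outside the clones the dp cells of these dogs had 99 GZMB UMIs or 271 CPM (220 to 330) and CD8A sp cells 1423 CPM (1400 to 1446). CCL5 had 1 UMI in each class of the clones and stood at 329 CPM (272 to 393) in dp cells outside them. CTSW and GZMA had 0 UMIs in all 3 classes of the clones and 82.2 CPM (55.4 to 117) and 57.5 CPM (35.6 to 87.9) in dp cells outside. In dogs 2 and 3 the GZMB, GZMA and CTSW transcripts of dp cells thus came from cells outside these clones.

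Some genes of the cytotoxic list and several others were instead present in all 3 classes of the clones. KLRK1, encoding the activating receptor NKG2D, was at 307 CPM (236 to 394) in CD4 sp, 316 CPM (236 to 413) in dp and 259 CPM (193 to 340) in CD8A sp cells of the clones. Outside them it was at 48.2 CPM (44.5 to 52.2) in CD4 sp, 137 CPM (102 to 181) in dp and 411 CPM (399 to 424) in CD8A sp cells. IL7R was at 1229, 1179 and 1233 CPM in CD4 sp, dp and CD8A sp cells of the clones, and at 446 CPM in CD8A sp cells outside. CD40LG was at 81.2 CPM (46.4 to 132) in CD8A sp cells of the clones and 11.3 CPM (9.4 to 13.6) in those outside. KLK11 was at 69.4, 107 and 81.2 CPM in the 3 classes of the clones, against 12.5 CPM in CD4 sp, 52.0 CPM in dp and 9.5 CPM in CD8A sp cells outside.

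GZMK, encoding granzyme K, was not alike in the 3 classes of the clones. It was at 84.2 CPM (49.1 to 135) in CD4 sp, 232 CPM (165 to 317) in dp and 233 CPM (171 to 311) in CD8A sp cells of the clones. In dog 3 these values were 15.7 CPM (0.399 to 87.7), 287 CPM (200 to 399) and 334 CPM (223 to 479), the first on 1 UMI in 13 cells. In dog 2 they were 116, 87.0 and 154 CPM with overlapping intervals. Outside the clones it was at 109 CPM in CD4 sp, 304 CPM in dp and 949 CPM in CD8A sp cells.

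In dp and CD8A sp cells, CD8B was lower inside the clones than outside them. CD8B was at 59.4 CPM (30.7 to 104) in CD4 sp, 47.6 CPM (20.6 to 93.9) in dp and 40.6 CPM (17.5 to 80.0) in CD8A sp cells of the clones, compared with 46.4 CPM (42.8 to 50.3) in CD4 sp, 159 CPM (121 to 205) in dp and 755 CPM (738 to 771) in CD8A sp cells outside. LEF1 had 1 UMI in each class of the clones and stood at 357 CPM in CD4 sp and 159 CPM in dp cells outside. CCR7 had 0, 2 and 1 UMIs in CD4 sp, dp and CD8A sp cells of the clones.

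**Figure D5:**
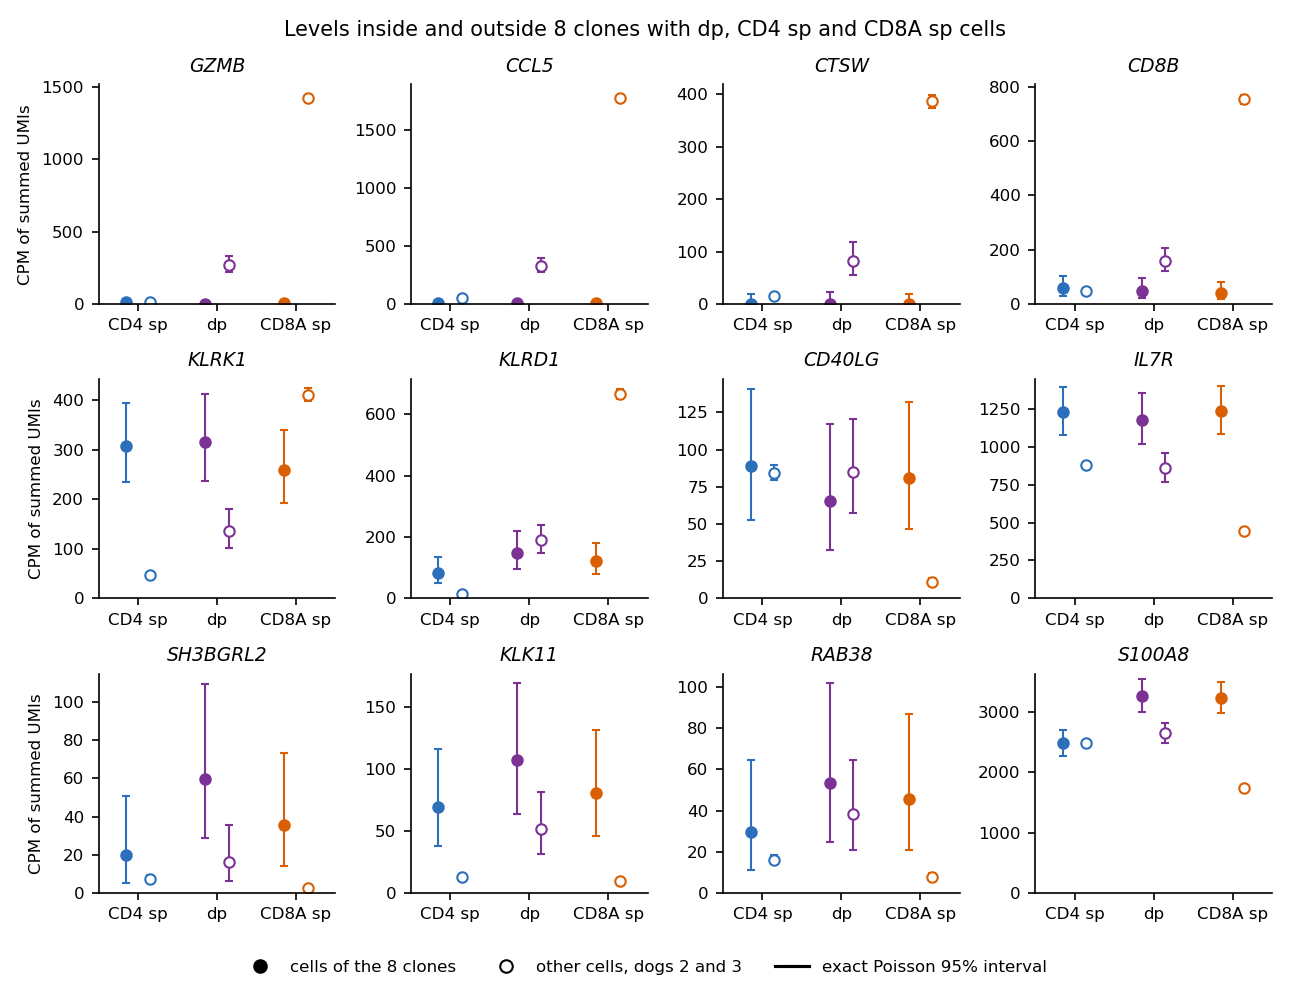
Level (CPM, linear axis from 0) of 12 genes in CD4 sp, dp and CD8A sp cells of dogs 2 and 3, inside (filled) and outside (open) the 8 clones that hold all 3 classes, with 95% exact Poisson intervals (counting error only). Inside the clones the classes have similar levels of KLRK1, IL7R and KLK11 and few or no UMIs of GZMB, CCL5 and CTSW, whereas outside the dp cells have 271 CPM of GZMB.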

How the data were processed

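Per the labels and the study's methods, blood cells of 4 Beagles were sorted for TCRαβ and sequenced as 10x Genomics 5′ transcriptome and V(D)J libraries. The deposited matrices hold UMI counts per gene and barcode, which the authors made with Cell Ranger 5.0.1 (submitters' processing notes) on CanFam 3.1, and the deposited V(D)J tables list productive chains. Here, barcodes with 500 to 20000 UMIs and at most 10% mitochondrial UMIs were kept. No doublet caller was run. UMIs were summed per dog and class and tested with edgeR 4.0.16 (R 4.3.3), with the dog as a block and DESeq2 1.42.0 as alternatives. The dog pairs the sums because its 3 classes come from 1 library. Deviations from class means correlated within a dog at 0.0748 to 0.296 between dp and sp sums. Cell measures were compared by exact permutation of 4 dogs against 4 (scipy 1.17.1). This permutation does not use the pairing of the classes by dog. An exact sign-flip over dogs does, but 0.125 is the smallest p it can give. Named genes were up to 12 per direction with the largest change among called genes that moved alike in 4 dogs, beside fixed gene lists. Each named gene had 20 or more UMIs over the dp sums or over the sp sums, so some had fewer in dp cells. The classes, gene lists and alternatives were chosen with earlier results of these data known. Further alternatives changed the filter on low counts, the scaling, the depth, the UMI threshold and the receptor chains required, and left out each dog in turn. Exact intervals and limits of 3 counts cover counting error only. The matrices share 20257 genes.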

Additional observations from a re-analysis of the deposited data

Results flagged for a closer look

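Values of 4 dogs were screened for a dog that stood far from the others (gap to the nearest dog divided by the range of the 4). Of 239 groups screened, 17 passed, where chance passes about 1 in 20. No explanation was tested for any of them.

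In dp cells, dog 4 stood apart in the share with 2 or more TRA chains (23.1% against 13.3 to 14.5%, gap ratio 0.879), dog 3 in KLK11 (96.1 CPM against 21.1 to 32.9 CPM, ratio 0.843) and dog 1 in LEF1 (247 CPM against 100 to 116 CPM, ratio 0.890). FGR, MTX3 and ZNF263 each had 1 UMI in dog 3 and 0 in the other dogs (ratio 1 each).

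In CD8A sp cells, dog 4 stood apart in the share with 2 or more TRA chains (9.43%, ratio 0.835) and in RAB38 (0.333 CPM against 7.92 to 8.54 CPM, ratio 0.925). Dog 2 was high in the CD8B to CD8A ratio (0.514, ratio of gap to range 0.865) and in ACTN1 (47.1 CPM, ratio 0.888). Dog 3 was low in CHN2 (19.0 CPM, ratio 0.968) and CTSW (340 CPM, ratio 0.880), and dog 1 was low in S100A8 (877 CPM against 1757 to 1776 CPM, ratio 0.978) and in the median TRB junction length (42 against 45 bases, ratio 1). In CD4 sp cells, dog 1 alone had TRAV9-11 with TRAJ28 (0.189%, ratio 1), dog 3 was high in CD84 (94.9 CPM, ratio 0.842) and dog 4 in SELENOP (34.0 CPM, ratio 0.877).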

How the results depend on the processing

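Gene counts changed with the test, the dogs and the definition of the classes. Against CD4 sp cells the 9 calls became 80 with the dog as a block, 86 with DESeq2, 35 without the filter on low counts, 26 and 1 with at least 1 or 3 UMIs per coreceptor, 68 with any number of TRB chains and 2 to 9 with 1 dog left out. Against CD8A sp cells the 114 calls became 218 with the block, 194 with DESeq2 (121 higher, 73 lower), 55 at 4000 or more UMIs, 60 with 1 TRA and 1 TRB chain, 42 with at least 3 UMIs, 71 with any number of TRB chains and 17 to 93 with 1 dog left out. Against the mean of the sp classes the 0 calls became 13 with the block, 32 with DESeq2, 4 without the filter, 1 with at least 3 UMIs, 4 with any number of TRB chains and 0 to 1 with 1 dog left out. Between the sp classes the 1369 calls became 2318 with the block, 888 at 4000 or more UMIs and 880 to 1181 with 1 dog left out.

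Chosen after seeing the data, leaving out the 31 dp cells of clones with repeated dp cells gave 18 calls against CD4 sp and 66 against CD8A sp cells (with the block 66 and 178, and 7 against the mean), and 4000 or more UMIs with the block gave 55 against CD4 sp cells and 6 against the mean. DESeq2 scaling moved the median log2 fold change of all genes against CD4 sp cells from -0.08 to 0.11. The 29 genes named from the fit without the block kept their direction under the alternatives run, but calls were lost for 18 of them with at least 3 UMIs, 12 with any number of TRB chains, 10 with 1 TRA and 1 TRB chain, 7 at 4000 or more UMIs and 7 to 16 with 1 dog left out. Genes named only from the fit with the block were not rerun under all of them. For the cell measures the block was an exact sign-flip over dogs. Its smallest possible p is 0.125, so it could pass none of them and shows nothing about their stability.

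Several differences of dp from sp cells, in percentage points, changed sign. None of them had passed its test. The TRB share with CD4 sp cells (against CD4 sp) became -3.07 at 4000 or more UMIs, -7.62 without the repeated clones and -4.84 to 14.55 with 1 dog left out. With at least 1 UMI, TRAV43, TRBV16 and TRBV7 against CD4 sp became -4.25, -1.65 and 0.313 and TRBV18 against CD8A sp -1.91. With at least 3 UMIs, TRAV24 against CD8A sp became 4.54, and TRBV16 and TRBV7 against CD4 sp -6.51 and 4.52. Without the repeated clones, TRAV43, TRBV16 and TRBV7 against CD4 sp became -3.16, -0.0444 and 0.896, and at 4000 or more UMIs TRBV7 against CD8A sp became -2.42. With 1 dog left out, TRAV24 and TRBV7 against CD4 sp ran from -1.04 to 3.70 and -3.40 to 1.43, and TRBV18 against CD8A sp from -1.23 to 5.48. The CD8B to CD8A ratio (dp minus CD8A sp) became -0.111 with at least 1 UMI. The dp share became 1.67% with at least 1 UMI and 0.153% with at least 3. Median UMIs became 6441, 5057.5 and 4948 in dp, CD4 sp and CD8A sp cells at 4000 or more UMIs, and 4042 and 4454 in CD4 sp cells with at least 1 or 3 UMIs. The cause of these shifts was not tested. The 13 to 62 dp cells per dog limit every dp value, and a gene with 0 UMIs in them was not detected, which allows up to 3 counts.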
